A study of Mus musculus with 3 samples.

Results

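Expression of 10 genes of the bone morphogenetic protein (BMP) pathway was examined in myoblasts derived from gene-edited iPSCs in mouse-mouse chimeras. The genes were the ligands Bmp2, Bmp4 and Bmp7, the secreted protease Bmp1, the receptors Bmpr1a, Bmpr1b and Bmpr2, the secreted antagonists Nog and Grem1, and the inhibitory Smad gene Smad6. They were taken by name from 35562 annotated genes listed in every library. In short, transcripts of both kinds of receptor and of both antagonists were present in every line, whereas each of the 3 ligands lay below 1 TPM, a unit of abundance that adjusts for transcript length. Among the 7 members that reached 1 TPM in every line, Grem1 differed most between lines.

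BMPs are secreted dimers of the TGF-β superfamily that bind a complex of type I and type II serine/threonine kinase receptors. The type II receptor phosphorylates the type I receptor, which in turn phosphorylates Smad1, Smad5 and Smad9. These enter the nucleus with Smad4 and activate targets such as the Id genes, whose products bind the partners of MyoD-family factors and hold back muscle differentiation. In skeletal muscle, BMP signaling is known to favor proliferation of activated satellite cells, and extracellular antagonists such as Noggin and Gremlin 1 keep ligands from their receptors. Bmp1 bears the name of the family but encodes a tolloid metalloproteinase, which trims procollagens and cleaves the antagonist Chordin. Smad6 is an intracellular inhibitor that BMP signals themselves induce.

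The 3 libraries came from myoblast lines numbered 66, 67 and 72, and they form 1 condition (n = 3). Each line carried the Dmdmdx mutation, which had been corrected in the iPSCs with CRISPR/Cas9, together with the Pax7-nGFP reporter allele, in which nuclear GFP marks Pax7-expressing cells. Satellite cells, the muscle stem cells, had been sorted from chimeras and expanded as myoblasts, and GFP+ myoblasts were sorted before sequencing. The study used several host blastocysts, among them Pax7 Cre/ERT2 with Rosa26 lsl-DTA, in which tamoxifen removes host Pax7-expressing cells. Which host each line came from, whether its chimera received tamoxifen, and how old it was, are not in the sample labels, and whether the lines came from separate animals or iPSC clones is not stated there either, so the spread between them may be partly technical. Unedited myoblasts and myoblasts of Pax7-nGFP mice were not analysed here, and every value below describes edited lines alone. In this order of lines, the estimated counts summed to 73274315, 66972426 and 70272367. All 8 myoblast markers of a list that includes Pax7, Myf5, Myod1 and Des exceeded 10 TPM on average, at summed levels between 2428 and 2545 TPM. All 6 pluripotency markers were at or under 3 counts in every line. Endothelial markers summed to at most 2.14 TPM and immune markers to at most 4.58 TPM, of which Cd68 gave most, and both the pan-leukocyte gene Ptprc and the endothelial gene Cdh5 were at most at 0.158 TPM. Fibroblast markers summed to between 244 and 444 TPM, nearly all from Col3a1, Prrx1 and Col1a2, and Thy1 averaged 4.19 TPM. The others were below 1 TPM, with Pdgfra at 67.4 to 114 counts, Col1a1 at 37 to 119 counts, Dcn at no more than 4 counts, and Lum and Dpt listed at 0. In bulk RNA, fewer cells that express a gene and less RNA per cell cannot be told apart.

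The regulatory sequence beside 3 of the members is given first, because these genes stand for the 3 kinds of result that follow. Bmp4 was a ligand near the detection limit, Grem1 was the antagonist that differed between lines, and Smad6 was an inhibitor at a moderate and steadier level. The sequences are the 250 bases before the RefSeq start (GRCm38.p6), read in the direction of transcription, and all 3 lie on the minus strand, at chr14:46390670-46390919 for Bmp4, chr2:113758649-113758898 for Grem1 and chr9:64022060-64022309 for Smad6. Capitals mark matches to GGCGCC, a GC-rich element to which BMP-activated Smads can bind, and to the E-box CANNTG, the class of site that MyoD-family factors recognize. Both motifs read the same on either strand, and no match overlapped another.
Bmp4: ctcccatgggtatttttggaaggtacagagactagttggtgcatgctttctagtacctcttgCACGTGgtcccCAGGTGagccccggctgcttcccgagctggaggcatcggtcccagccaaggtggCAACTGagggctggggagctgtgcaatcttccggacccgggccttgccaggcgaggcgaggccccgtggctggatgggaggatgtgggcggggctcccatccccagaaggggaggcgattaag
Grem1: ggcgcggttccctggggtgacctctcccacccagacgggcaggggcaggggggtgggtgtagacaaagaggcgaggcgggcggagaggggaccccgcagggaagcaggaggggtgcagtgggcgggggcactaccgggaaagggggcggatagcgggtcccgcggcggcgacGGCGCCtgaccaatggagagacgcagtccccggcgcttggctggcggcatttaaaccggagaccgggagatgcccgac
Smad6: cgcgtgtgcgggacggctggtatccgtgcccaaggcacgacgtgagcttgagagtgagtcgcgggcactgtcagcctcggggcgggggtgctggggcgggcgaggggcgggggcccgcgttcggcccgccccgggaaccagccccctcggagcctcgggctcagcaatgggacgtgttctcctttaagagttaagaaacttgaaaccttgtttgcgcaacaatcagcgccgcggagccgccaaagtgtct

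The Bmp4 window held 3 E-boxes and no GGCGCC, the Grem1 window held 1 GGCGCC and no E-box, and the Smad6 window held neither. Starts were listed for 6 of the 10 members, 8 starts in all, and GGCGCC occurred before those of Bmpr1a, Bmpr2 and Grem1, that is, 3 of 6 members, against 9.59% of the 32851 promoters of the same length. The share of G and C was 78.8%, 64.0% and 72.0% in these 3 windows and 66.8% and 63.2% in those of Smad6 and Bmp4, and 56.4%, 52.8% and 46.8% in those of Bmpr1b, none of which held a match, where the median promoter had 52.4%. E-boxes occurred for Bmp4 and Bmpr1b alone, that is, 2 of 6, whereas 66.2% of all promoters held at least 1. The short Smad box GTCT or its reverse complement was found for Bmp4, Bmpr1b, Grem1 and Smad6, and 82.9% of all promoters held it. For each motif, the share of members counts a match at any listed start of a gene. The share of promoters counts each start by itself, so the units differ. CpG dinucleotides, which cluster in CpG island promoters, numbered 36 before Bmpr1a, 27 before Smad6, 24 before Grem1, 22 before Bmpr2, 11 before Bmp4 and 5, 5 and 1 before the 3 starts of Bmpr1b, against a median of 6. A match of letters describes the window and is not evidence of binding.

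As the first question, the levels of the 10 members were ranked to see which parts of the pathway these myoblasts transcribed. TPM divides each estimated count by the effective length of its transcript, and is scaled to 1000000 per library, so that levels of different genes can be compared. Of the 10 members, 7 reached 1 TPM in every line, where 33.8% of all listed genes did. The median of the members' mean levels was 5.69 TPM, and that of all listed genes was 0.0958 TPM. The 7 were Bmpr1a, Bmp1, Bmpr2, Grem1, Bmpr1b, Smad6 and Nog, in order of mean level, and the 3 below were Bmp4, Bmp7 and Bmp2.

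**Figure D1:**
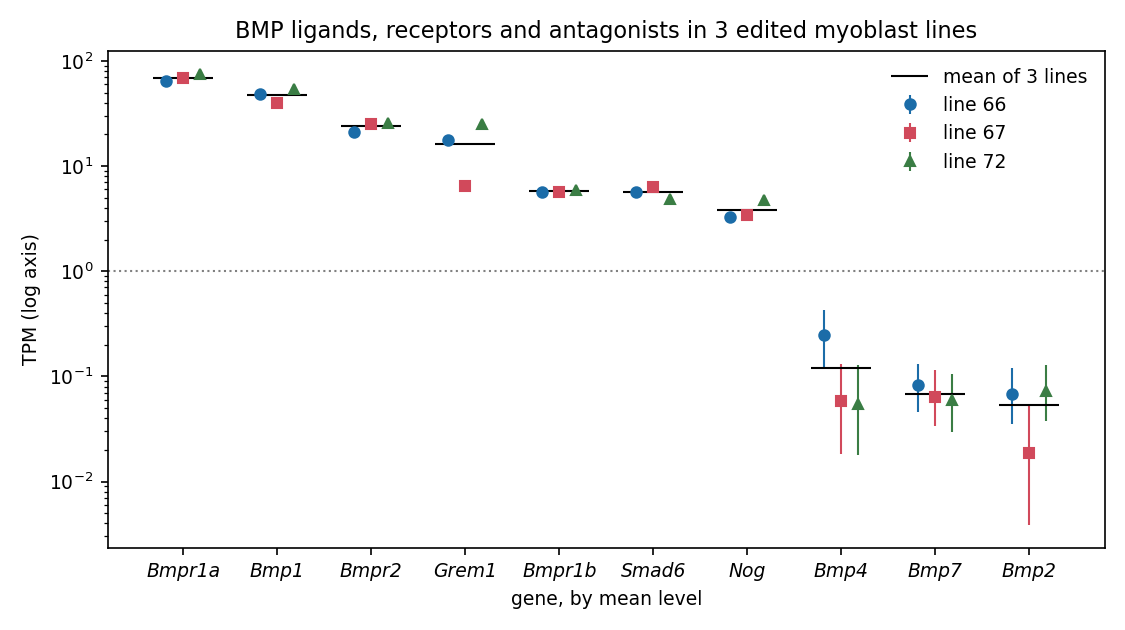
TPM of the 10 genes (log axis) in lines 66, 67 and 72. Symbols are lines, vertical bars are exact 95% Poisson intervals of the counts, black lines are means of 3 lines, and the dotted line marks 1 TPM. The ligands Bmp4, Bmp7 and Bmp2 lie below 0.25 TPM in every line, and Grem1 has the widest spread of the 7 genes above 1 TPM.

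The ligands were close to the limit that the sequencing depth allowed. Bmp2 (chr2:133552159-133562885, plus strand), a ligand best known for inducing bone, had 12, 3 and 12 counts in lines 66, 67 and 72. The exact 95% Poisson interval was 6.20 to 21.0 counts for a count of 12 and 0.619 to 8.77 for a count of 3, and these intervals overlap. The count of line 67 equaled the 3 counts taken here as the detection floor, although its interval reaches above that. These intervals cover counting error only. In TPM, Bmp2 was at 0.0683, 0.0186 and 0.0726, with a mean of 0.0532 ± 0.0300 (SD, n = 3).

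Bmp7 (chr2:172868012-172940321, minus strand), a ligand of kidney and skeletal development, had estimated counts of 16.4, 11.6 and 11.01. Its levels of 0.0823, 0.0636 and 0.0591 TPM had overlapping counting intervals. All of its TPM lay on the coding transcript Bmp7-201.

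Bmp4 (chr14:46383520-46390669, minus strand) encodes a ligand that acts early in mesoderm and later holds back myogenic differentiation in embryonic muscle. It had estimated counts of 11.3, 5.14 and 5.001 and levels of 0.245, 0.0583 and 0.0549 TPM. Line 66 was therefore the highest in TPM, at over 4 times either other line. In line 66, however, 54.8% of the Bmp4 TPM came from a retained-intron transcript of 258 bases, Bmp4-204, with an estimated 0.548 counts. The coding transcript Bmp4-201 held 10.7 counts in that line, with exact 95% intervals of the gene's counts of 5.49 to 19.7 in line 66 and 1.62 to 11.7 in each other line. These intervals overlap, and the difference was not tested.

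All 3 ligands together amounted to 39.6, 19.7 and 28.0 estimated counts. Their order was not resolved. Bmp4 was above Bmp7 in 1 of 3 lines, and Bmp7 was above Bmp2 in 2 of 3 lines. Two-sided exact sign-flip tests over the lines gave p = 1 and p = 0.75 for these neighbors, where 3 lines cannot give a p below 0.25.

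Bmp1 (chr14:70474558-70520234, minus strand) was the second most abundant member. It was at 48.7, 40.0 and 54.5 TPM, with a mean of 47.7 ± 7.27 TPM (SD, n = 3), lowest in line 67 and highest in line 72. The largest difference between lines was 1.36-fold, and the coefficient of variation (CV) of 15.2% lay above that of 68.0% of the 12528 genes whose mean reached 1 TPM.

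Much of the Bmp1 signal was assigned to transcripts not annotated as coding. The coding transcript Bmp1-201 accounted for 50.4%, 41.0% and 47.2% of the gene's TPM. Transcripts annotated for nonsense-mediated decay, a pathway that destroys mRNAs with an early stop codon, accounted for 31.6%, 38.0% and 32.1%, mainly through Bmp1-205. The processed transcript Bmp1-207 gave 17.4%, 20.5% and 19.7% of the TPM but only between 1.65% and 1.94% of the estimated counts, since it is 507 bases long. Line 67 had the lowest coding share and the highest decay-annotated share. Counted by reads instead, the decay-annotated share was 43.5%, 52.8% and 45.5% and the coding share 54.7%, 45.1% and 52.4%, so that the former was the larger in line 67 alone.

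The sequence at which Bmp1-205 parts from Bmp1-201 carries an annotated early stop codon. Both transcripts share exon 4 (chr14:70508456-70508573, GRCm38). Exon 5 of Bmp1-201 spans chr14:70507999-70508177, and that of Bmp1-205 begins 37 bases further upstream, at chr14:70507999-70508214. The lines below give the last 24 bases of exon 4 and the first 37 bases of exon 5, 5′ to 3′ in the direction of transcription, with that stop codon in capitals.
Bmp1-201: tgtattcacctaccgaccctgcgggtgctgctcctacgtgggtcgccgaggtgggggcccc
Bmp1-205: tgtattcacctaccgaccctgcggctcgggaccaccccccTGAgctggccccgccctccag

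The stop codon TGA lies at chr14:70508196-70508198, within the 37 added bases. Bmp1-205 also has 658 added bases in exon 16 (chr14:70486273-70486930), and transcripts are listed as whole molecules, so the share of Bmp1-205 cannot be assigned to either stretch. The Bmp1 gene is known to give a shorter and a longer protease by alternative splicing. Taken by itself, Bmp1-201 was at 24.5, 16.4 and 25.7 TPM, which is below the whole gene in each line and overlaps the range of Bmpr2.

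**Figure D2:**
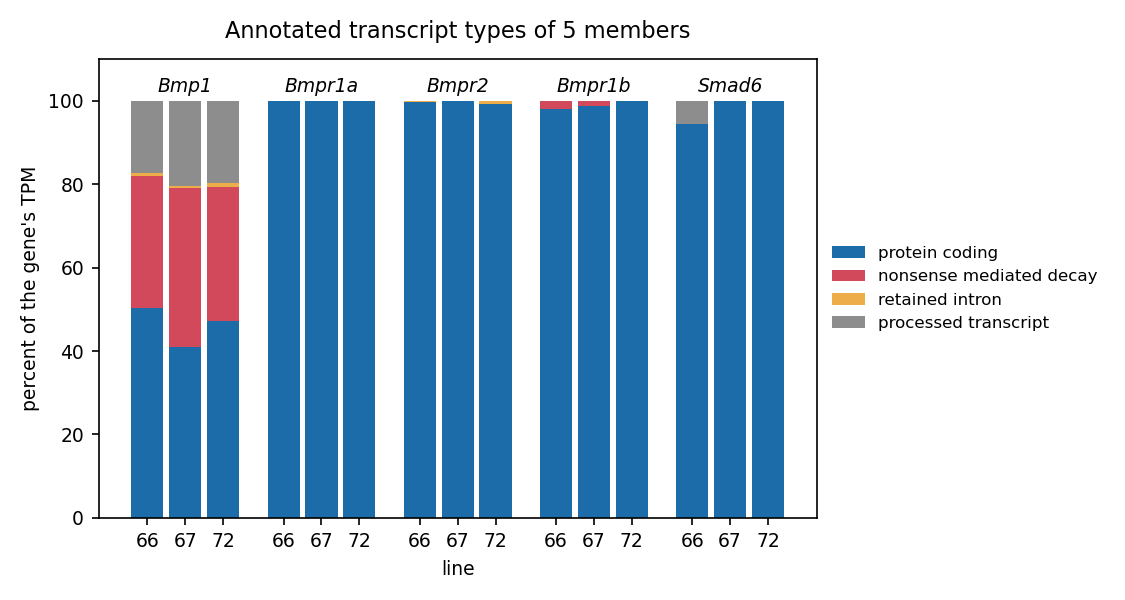
Percent of each gene's TPM by annotated transcript type in lines 66, 67 and 72, for the 5 members with several listed transcripts that reached 1 TPM in every line. Bmp1 is between 41.0% and 50.4% protein coding, and the other 4 genes are at least 94.5% protein coding in each line.

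Among the receptors, the type I receptor Bmpr1a (chr14:34410734-34503341, minus strand), the principal type I receptor for BMP2 and BMP4, was the most abundant of all members. Its levels were 63.6, 68.2 and 74.7 TPM, with a mean of 68.9 ± 5.56 TPM (SD, n = 3). It was above Bmp1 in 3 of 3 lines, by a mean log2 ratio of 0.54 ± 0.20 (SD), and their ranges did not overlap (exact sign-flip test, p = 0.25, the smallest that 3 lines allow). All of its TPM lay on transcripts annotated as coding, of which Bmpr1a-201 held between 62.0% and 66.0%.

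Bmpr1b (chr3:141837136-142169425, minus strand) encodes the other classical type I BMP receptor, known for cartilage formation and the ovary. It was at 5.71, 5.65 and 5.93 TPM. By the CV of TPM it was the steadiest of the 7 members, at 2.56%, and only 5.50% of genes fell below. By the biological coefficient of variation from edgeR it was not. That value was 0.155 for Bmpr1b, 0.092 for Bmpr1a, 0.108 for Bmpr2 and 0.127 for Bmp1. The lines were within 1.05-fold of each other. Bmpr1a exceeded Bmpr1b by a factor of 11.1, 12.1 and 12.6, and the mean log2 ratio was 3.58 ± 0.09 (SD, n = 3; exact sign-flip test, p = 0.25).

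The transcripts of Bmpr1b were less even than its sum. Bmpr1b-201 held 59.2%, 78.5% and 78.0% of the gene's TPM, and Bmpr1b-204 held 16.4%, 0% and 1.69%. Line 66 therefore stood apart in the shares of Bmpr1b-201 and Bmpr1b-204, although the gene as a whole did not differ. Bmpr1b-204 rests on 167, 0 and 16.9 estimated counts, with 1 library a line. In the coding transcript Bmpr1b-202, at 5.87%, 0% and 6.21%, line 67 stood apart instead. The coding transcript Bmpr1b-203 held between 14.1% and 20.3%.

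Bmpr2 (chr1:59763400-59879014, plus strand) encodes the type II receptor that is dedicated to BMP ligands. Its levels of 21.0, 25.2 and 25.5 TPM were lowest in line 66 and nearly equal in the other two, with a mean of 23.9 ± 2.55 TPM (SD, n = 3). At least 99.2% of its TPM came from Bmpr2-201, a transcript of 12899 bases. Bmpr2 stood at 0.302, 0.342 and 0.317 times the summed level of Bmpr1a and Bmpr1b, a mean log2 ratio of -1.64 ± 0.09 (SD, n = 3; exact sign-flip test, p = 0.25). This ratio depends on the correction for length, since the values per read, in CPM, of the type II and the type I receptors were nearly equal, with a log2 ratio of -0.018.

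Both antagonists were transcribed well above the ligands. Nog (chr11:89300638-89302332, minus strand) encodes Noggin, which binds BMP2 and BMP4 with high affinity. It was at 3.24, 3.46 and 4.80 TPM (256, 254 and 355 counts), with a mean of 3.83 ± 0.84 TPM (SD, n = 3). Line 72 was the highest. Its exact 95% interval of 319 to 394 counts lay above those of the other lines, which ended at 289 and 287 counts. The total counts of the libraries also differ. In TPM, which is scaled per library, the interval of line 72 was 4.31 to 5.32. Those of lines 66 and 67 ended at 3.66 and 3.91 TPM. The largest difference between lines was 1.48-fold. Genes on chromosome 11, where Nog lies, were shifted upward in line 66, with a median log2 ratio of 0.33 to the mean of the other lines and 88.3% of 996 genes above 0. Nog itself was at -0.27 on the same scale in line 66, and at 0.44 in line 72, where the chromosome's median was -0.14. On the chromosomes of the other members, medians lay between -0.07 and 0.04 in every line.

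Grem1 (chr2:113746164-113758646, minus strand) encodes Gremlin 1, an antagonist of BMP2, BMP4 and BMP7, and differed most between lines among the 7 members that reached 1 TPM. Its levels were 17.5, 6.53 and 25.1 TPM, from 3093, 1052 and 4145 estimated counts on a single coding transcript. The mean was 16.4 ± 9.32 TPM (SD, n = 3). Line 67 was the lowest by a wide margin, line 72 was the highest, and the counting intervals of the 3 lines did not overlap. Line 72 exceeded line 67 by 3.84-fold. On the log2(TPM + 0.1) scale used for comparisons between lines, line 72 differed from line 67 by 1.93, line 67 from line 66 by -1.41 and line 72 from line 66 by 0.52.

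Grem1 was the only 1 of the 7 members whose mean reached 1 TPM that was over 2-fold apart between lines. It passed that limit for line 67 against line 66, where 3.54% of the 12528 genes did, and for line 72 against line 67, where 3.15% did. Line 72 and line 66 were not over 2-fold apart for any of these 7 members, against 3.98% of genes. Over any pair of lines, 6.67% of genes were over 2-fold apart, and a single call among 7 members is not read as a feature of the group. Without line 67 none of these 7 was over 2-fold apart (4.12% of all genes compared), so the difference in Grem1 rests on that line. Its CV of 57.0% lay above that of 97.6% of genes. The biological coefficient of variation from edgeR was 0.427 for Grem1, where the median over 15654 genes was 0.177. Each line is a single library, so the difference has no replicate within a line and was given no p-value.

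The levels of other gene groups are set beside Grem1 here, and no group was tested. Over 2-fold apart were 3 of 3 smooth muscle and pericyte markers, 1 of 4 fibroblast markers and 2 of 7 differentiating muscle markers. These are markers whose mean reached 1 TPM, and 6.67% of all such genes were over 2-fold apart. The summed level of 5 smooth muscle and pericyte markers was 566, 435 and 755 TPM, lowest in line 67 and highest in line 72 as for Grem1, but its members ran in different orders. Acta2 was at 209, 292 and 581 TPM, Rgs5 at 356, 137 and 172 TPM and Cspg4 at 0.813, 5.24 and 1.33 TPM. The smooth muscle marker Myh11 had at most 13.0 counts and Pdgfrb at most 68 counts. Fibroblast markers summed to 244, 317 and 444 TPM and markers of differentiating muscle to 1015, 1503 and 1782 TPM, both lowest in line 66. Of the fibroblast markers, Prrx1 was at 86.9, 77.7 and 133 TPM, lowest in line 67 and highest in line 72 as for Grem1, whereas Col3a1 was at 145, 205 and 270 TPM and Col1a2 at 7.47, 28.3 and 37.0 TPM. The part of these groups in the Grem1 difference was not tested.

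Across the 7 members, the median CV was 13.1%, beside 10.6% over all genes whose mean reached 1 TPM. Without line 66, 67 or 72 it was 18.6%, 11.6% and 7.12%, and the median over all genes was then 7.06%, 9.97% and 9.01%. Bmpr1b and Bmpr1a varied less than the median gene, Bmpr2 lay at the median, and Smad6, Bmp1, Nog and Grem1 varied more.

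**Figure D3:**
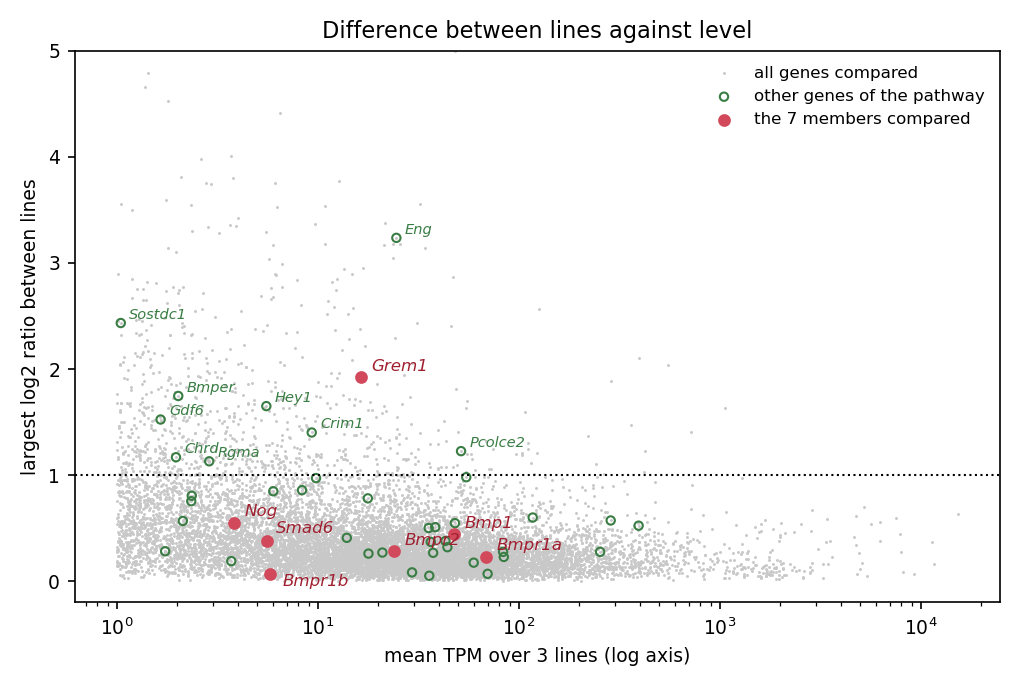
Largest log2 ratio between any 2 lines against mean TPM (log axis) for genes whose mean reached 1 TPM. Grey points are all 12528 genes, of which 13 lie above the top of the axis. Green circles are other genes of the pathway, and red points are the 7 members. Grem1 alone among the red points lies above the dotted line, which marks 2-fold.

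As the second question, the antagonists were set against the ligands. Nog and Grem1 together amounted to 20.7, 9.98 and 29.9 TPM, and Bmp2, Bmp4 and Bmp7 to 0.396, 0.141 and 0.187 TPM. With 0.1 TPM added to each sum, the antagonists exceeded the ligands by a factor of 42.0, 41.9 and 105. The mean log2 ratio was 5.83 ± 0.76 (SD, n = 3), and all 3 lines showed the same direction (exact sign-flip test, p = 0.25, the smallest that 3 lines allow). Line 67 had the lowest sums of both. Both sums hold members alone. They leave out further ligands, such as Gdf6, which at 0.890, 1.32 and 2.75 TPM was above the ligand sum in each line. Further antagonists are left out as well, such as Nbl1 at 76.8, 90.0 and 86.2 TPM. The size of the ratio rests on the few ligand counts and on the value added, and with 1 TPM added it was 3.98 on the log2 scale. Grem1 exceeded Nog by a factor of 5.40, 1.89 and 5.23, a mean log2 ratio of 1.91 ± 0.86, with line 67 again apart from the others (exact sign-flip test, p = 0.25). Transcript levels do not measure how much ligand or antagonist protein the cells or the culture medium held.

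Smad6 (chr9:63953076-64022059, minus strand) was at 5.70, 6.31 and 4.84 TPM, highest in line 67 and lowest in line 72, with a mean of 5.62 ± 0.74 TPM (SD, n = 3). The lines differed by at most 1.30-fold. Its level could not be ranked against that of Bmpr1b, which was higher in 2 of 3 lines (mean log2 ratio of 0.05 ± 0.23, exact sign-flip test, p = 0.75). It exceeded Nog in 3 of 3 lines, although by little in line 72, where Smad6 was at 4.84 and Nog at 4.80 TPM. Bmpr2 likewise exceeded Grem1 in each line, but their ranges overlapped, at 25.5 against 25.1 TPM in line 72.

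As the third question, the members were placed among 63 other genes of the pathway, of which 39 had a mean of at least 1 TPM and 24 of at least 10 TPM. Of those 39, 9 were over 2-fold apart between lines, or 23.1%, beside 6.67% of all genes compared. This count was 2 of 38 without line 66 (Hey1 and Pcolce2), 8 of 39 without line 67, and 3 of 39 without line 72 (Eng, Bmper and Sostdc1), beside 3.13%, 4.12% and 3.57% of all genes in the same settings. The other ligands resembled Bmp2, Bmp4 and Bmp7. Of 11 BMP and GDF ligands, 10 were below 1 TPM, with a median of 0.0354 TPM, and Bmp10 and Gdf2 were listed at 0 in every line. The exception was Gdf6, a ligand of joint and eye development, at 0.890, 1.32 and 2.75 TPM, which was 3.09-fold higher in line 72 than in line 66.

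Receptors beyond the 3 members were present as well. Acvr1, a further type I receptor for BMPs, was at 30.1, 42.3 and 42.9 TPM, and Acvr2a, a type II receptor that BMPs share with activins, was at 18.7, 21.6 and 22.6 TPM. The endothelial type I receptor Acvrl1 stayed below 0.67 TPM. Rgmb, a membrane-anchored BMP coreceptor, was at 13.5, 12.2 and 16.2 TPM. Eng, a coreceptor best known from endothelium, differed more than any member, at 4.78, 45.9 and 23.2 TPM, and line 66 was far below the others. The 6 endothelial markers summed to 2.14, 1.17 and 1.89 TPM, of which Emcn had at most 2 counts, Cdh5 at most 12, Pecam1 at most 74.1, Kdr at most 105, Tek at most 175 and Vwf at most 179. Their part in the Eng difference was not tested. Rgma, of the same family as Rgmb, was at 1.85, 2.64 and 4.17 TPM and was the other gene over 2-fold apart among the 7 of 10 receptors and coreceptors whose mean reached 1 TPM. Below that limit, Acvrl1 was at 0.313, 0.121 and 0.669 TPM and Tgfbr3 at 0.124, 0.129 and 0.494 TPM.

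Of 18 further secreted antagonists and modulators, 10 had a mean of at least 1 TPM. Nbl1, an antagonist related to Gremlin, was at 76.8, 90.0 and 86.2 TPM, and Twsg1, a modulator that binds Chordin and BMPs, was at 49.1, 39.3 and 44.2 TPM. Both exceeded Grem1 in every line. Fstl1, a follistatin-like secreted protein, was at 76.6, 49.1 and 38.8 TPM, and Fst, an activin and myostatin antagonist, was at 13.3, 16.9 and 23.0 TPM. Of these 10, those over 2-fold apart were Chrd at 3.04, 1.58 and 1.30 TPM, Crim1 at 14.1, 8.58 and 5.29 TPM, Sostdc1 at 2.11, 0.723 and 0.309 TPM, and Bmper at 0.830, 2.22 and 3.02 TPM. Chrd, Crim1 and Sostdc1 were highest in line 66, where Bmper was lowest. None of these 4 shared the pattern of Grem1, which was lowest in line 67.

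Of the protease group around Bmp1, the paralogs Tll1 and Tll2 stayed below 0.15 TPM. Pcolce and Pcolce2, enhancers of procollagen cleavage by Bmp1, were at 94.4, 143 and 115 TPM and at 50.8, 31.1 and 72.99 TPM. Pcolce2 was 2.34-fold higher in line 72 than in line 67. Its order of lines was that of Bmp1 and Grem1, but also that of Rgmb, Hey1, Smad7, Smurf1 and Tob1. A shared pattern was not tested.

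Within the intracellular part of the pathway, all 10 Smads and regulators had a mean of at least 1 TPM, 9 of at least 10 TPM, and none was over 2-fold apart. Smad1 was at 28.7, 30.4 and 29.3 TPM and Smad5 at 36.1, 35.1 and 36.4 TPM, whereas Smad9, also a BMP-activated Smad, was at 2.32, 2.99 and 1.73 TPM. Smad4, the common partner, was at 71.8, 69.9 and 68.4 TPM. The inhibitor Smad7, which also restrains TGF-β signals, was at 18.4, 16.02 and 19.2 TPM and exceeded Smad6 in each line. The ubiquitin ligases Smurf1 and Smurf2, the corepressors Ski and Skil, and Tob1, an inhibitor of Smad-driven transcription, had means between 36.5 and 83.6 TPM.

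Of 12 genes known as BMP targets in various cell types, 6 had a mean of at least 10 TPM. Id1 was at 279, 253 and 230 TPM, Id2 at 351, 273 and 236 TPM, and Id3 at 484, 364 and 337 TPM, each highest in line 66 and lowest in line 72. Atoh8 was at 43.2, 30.4 and 33.3 TPM, and Runx2, a bone-lineage factor, at 40.3, 50.5 and 38.8 TPM. Dlx5, another gene of the bone lineage, had at most 3 counts. Hey1 was the 1 target over 2-fold apart among the 10 whose mean reached 1 TPM, at 4.38, 2.91 and 9.36 TPM. These genes respond to other signals as well, so their levels do not measure BMP signaling.

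**Figure D4:**
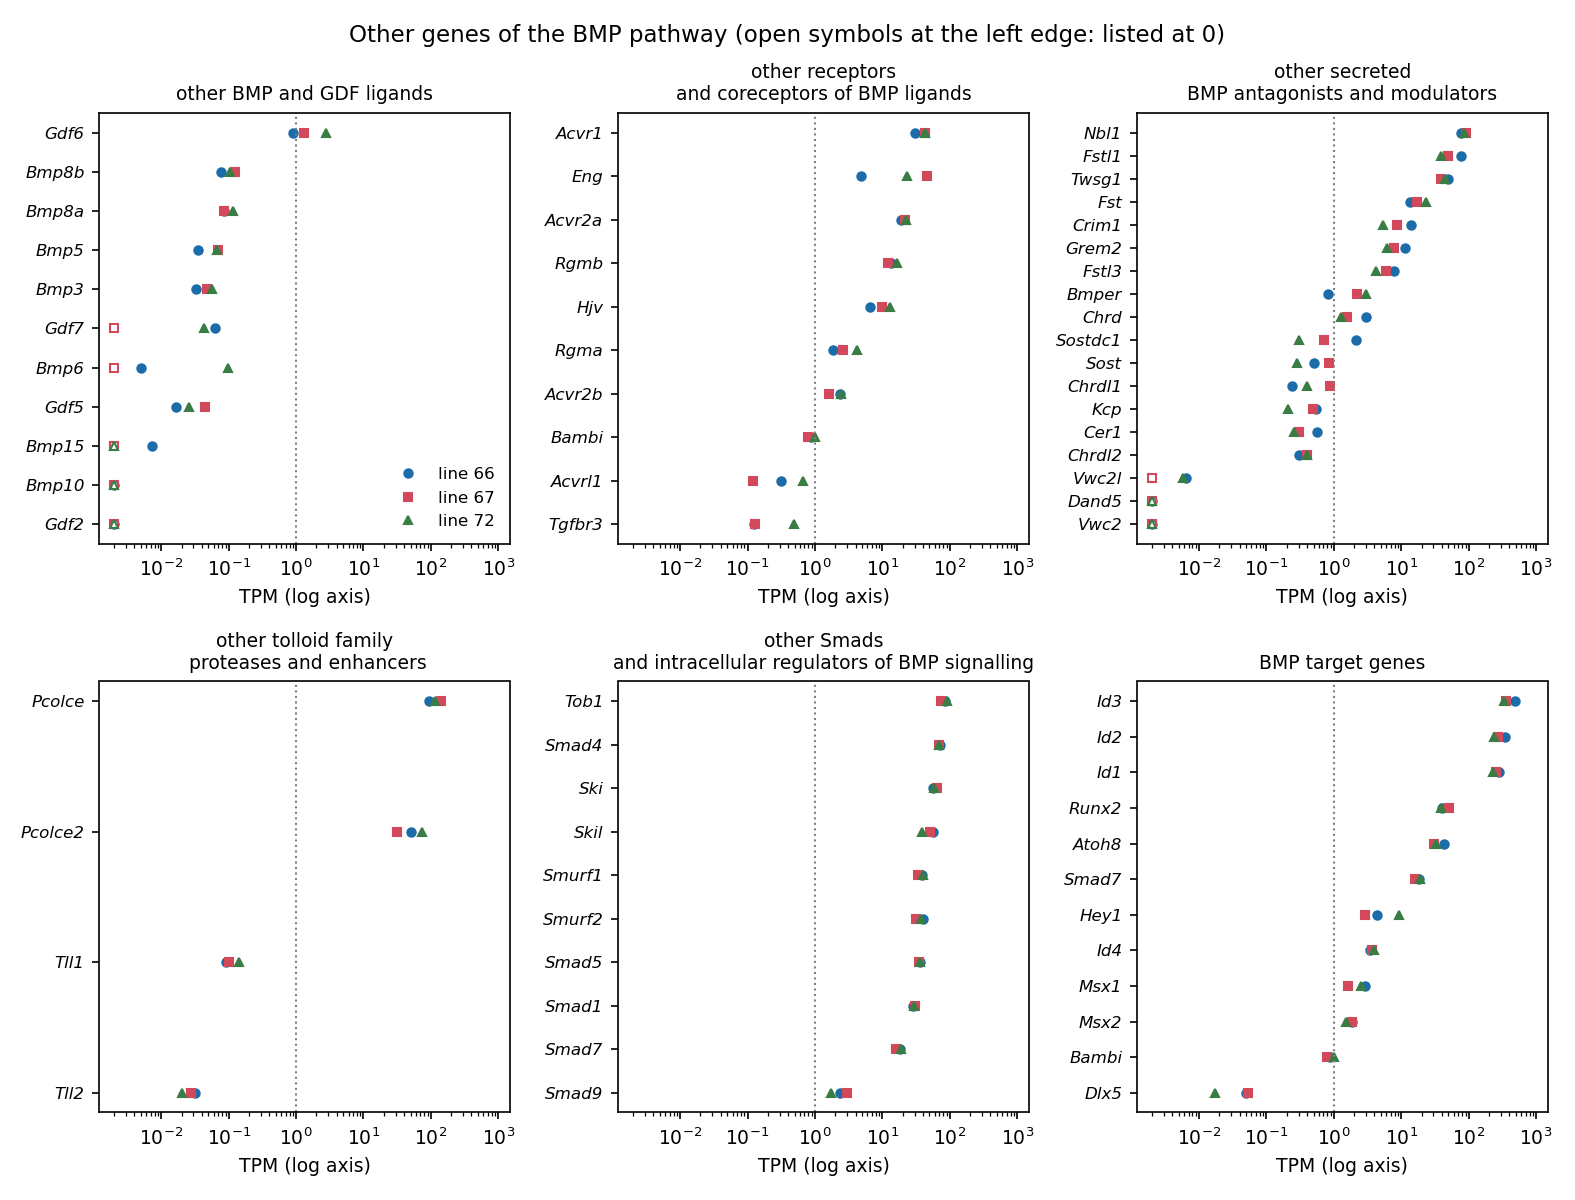
TPM (log axis) of the other genes of the pathway by list in lines 66, 67 and 72, with genes ordered by mean level within a list. Open symbols at the left edge mark values listed at 0, and the dotted line marks 1 TPM. Of 11 further ligands only Gdf6 has a mean above 1 TPM, all 10 Smads and regulators do, and Eng has the widest spread of the receptor list.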

How the data were processed

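Poly-A-enriched, stranded RNA-seq of 3 edited Dmdmdx, Pax7-nGFP myoblast lines was used. For each transcript the authors deposited an estimated count, which splits reads between the transcripts they match, and a TPM value, that count per effective length scaled to 1000000 per library. The submitters' processing notes list bcl2fastq 2.20, fastp 0.20, kallisto 0.46.1 and the build GRCm39 without saying what each did. The annotation behind the files is not given in the sources used here. Such assignment splits reads between overlapping transcripts by probability, so shares of transcripts are estimates.

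Transcripts were matched by identifier to GENCODE M21 (GRCm38), the source of all gene coordinates; 1112 of 121798 had no match (between 0.493% and 0.535% of counts) and were left out. TPM and counts were summed per gene. Genes whose mean reached 1 TPM were compared between lines on log2(TPM + 0.1). The biological coefficient of variation came from an intercept-only edgeR fit on rounded counts. Ratios were tested with exact two-sided sign-flip tests over 3 lines. The scripts were tested on simulated data. Library pairs correlated at 0.976 to 0.983 across genes and differed beyond sampling noise, so none was merged.

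The members and lists were chosen with earlier results of these data known. Named were all members and, of the 6 other pathway lists, genes averaging at least 10 TPM or over 2-fold apart among those averaging at least 1 TPM. Marker genes were named as examples of their lists. A few further genes, such as the ligands at 0, were named after their values were seen. Hjv was matched by its older symbol. Alternatives were CPM, edgeR's TMM, DESeq2 size factors, other pseudocounts, filters and thresholds, and leaving out each line. Promoters came from RefSeq (GRCm38.p6), and 4 members had none listed. Scripts ran in R 4.3.3 with DESeq2 1.42.0 and edgeR 4.0.16, and in Python 3.11.15 with pandas 2.3.3, numpy 2.4.6 and matplotlib 3.10.9.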

Additional observations from a re-analysis of the deposited data

How the results depend on the processing

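No paired analysis was possible because the 3 lines form a single condition. Without line 66 the mean level of Bmp4 was 0.0566 TPM, against 0.120 TPM over 3 lines. In CPM, which does not correct for length, 8 of 10 levels lay more than 1 SD from their value in TPM. The units differ, so this count does not measure how stable the levels are. The type II over type I receptor ratio was -0.018 on the log2 scale in CPM, against -1.64 in TPM. Without a line that ratio ranged from -1.69 to -1.60, and the antagonist over ligand ratio from 5.39 to 6.05. The latter was 6.27 in CPM and 3.98 with 1 TPM added, and kept its direction. A threshold of 10 TPM left 3 members in every line, whereas 0.1 TPM, CPM and leaving out a line each left 7. Between 0 and 1 of the 7 members compared were over 2-fold apart when a line was left out, with 0 without line 67. With no filter on low values there were 2, Grem1 and Bmp4, of which Bmp4 rests on few counts. A pseudocount of 1, a mean of at least 10 TPM, a 1.5-fold limit, TMM and DESeq2 size factors each gave Grem1 alone, and the log2 ratio of line 72 to line 67 stayed between 1.79 and 1.93. The alternatives for the other pathway genes and for transcripts were chosen after seeing the data. Between 2 and 8 other pathway genes were over 2-fold apart without a line (3.13% to 4.12% of all genes), 6 with a pseudocount of 1 (4.05%) and 11 with TMM (6.99%). The decay-annotated share of Bmp1 ranged from 31.8% to 35.1% of TPM without a line and was 47.2% of estimated counts. Ligand levels are limited by depth, with 3 to 16.4 counts each.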

Other observations

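Genes that overlap a member were checked for reads that could be confused with it. Gm15217 and Gm15222, which overlap Bmp4 on the opposite strand, had at most 4.22 estimated counts in any line. For Gm15222 these were 0, 2.17 and 4.22 in lines 66, 67 and 72, beside 11.3, 5.14 and 5.001 for Bmp4. Gm17110, antisense to Bmpr1a, had 3 counts in line 66 and 0 in the others, and Gm38125, on the same strand as Bmpr2, had between 2 and 4 counts. Bmpr1a had between 10826 and 11747 counts and Bmpr2 between 11379 and 12895.

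Other pathway genes on chromosome 11 did not all share its shift in line 66. Smurf2 was at 40.6, 31.4 and 37.5 TPM and Tob1 at 84.8, 75.1 and 91.0 TPM, while Sost, an antagonist of Wnt signaling that also binds BMPs, was at 0.508, 0.846 and 0.289 TPM.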
